A study of Homo sapiens with 24 samples.

Results

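Mediator and Integrator are protein complexes that work beside RNA polymerase II, and the mRNAs of their subunits were followed here through a transcription block in HepG2, a human liver cancer cell line. The subunit genes were the protein-coding genes named MED or INTS with a number (and a final L for paralogs), plus CCNC and CDK8. This gave 48 genes of the 58676 gene rows counted, 32 of Mediator and 16 of Integrator. The choice used names alone and no measured value. Of the 48, 47 passed the filter on low counts and were among the 13136 genes tested. The exception was INTS6L, listed at 0 reads in all 24 libraries, which allows up to 3 reads in each (counting error only). Whether this 0 comes from the cells or from the identifiers used in the counting was not tested.

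Mediator carries signals from DNA-bound transcription factors to RNA polymerase II at promoters. Its head and middle modules contact the polymerase, its tail contacts activators, MED14 runs through the core as a scaffold, and a separable kinase module (CDK8 or CDK19, cyclin C, MED12 or MED12L, MED13 or MED13L) binds the core reversibly. Integrator acts shortly after initiation: its endonuclease (INTS4, INTS9, INTS11) cuts nascent RNA, including that of small nuclear RNA genes, and its phosphatase arm (INTS6, INTS8) brings protein phosphatase 2A to the paused polymerase. Actinomycin D stops transcription, so the fall of an mRNA after its addition follows the loss of molecules already made.

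The cells received either a negative control siRNA (siControl) or an siRNA directed at 1 member of the IGF2BP family of RNA-binding proteins (siIGF2BP1, siIGF2BP2 and siIGF2BP3). Actinomycin D was added at 5 µg/ml for 0, 3 or 6 h before collection, about 48 h after reseeding of the transfected cells, and polyadenylated RNA was sequenced with ERCC synthetic RNA added per µg of total RNA. The 4 conditions and 3 time points gave 12 groups of 2 libraries, with the 0 h siControl group as the reference for abundance and the siControl time course as the reference for decay. Nothing in the labels says whether the libraries of a group came from separate cultures, so p-values measure only the spread between these libraries. The paper calls its 2 replicates independent. Per its methods each transfected plate was re-seeded into 3, so libraries of different times may share a transfection. The tests of decay treat all libraries as independent. HepG2 is 1 tumour-derived line and each knockdown was a transient transfection.

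Libraries held 31843248 to 74252042 gene reads and 50889 to 119088 ERCC reads. The target of each siRNA was lower at 0 h: IGF2BP1 was at 620 and 632 CPM (counts scaled to library size, with TMM) in siControl and at 130 and 134 in siIGF2BP1, IGF2BP2 fell by 1.93 on the log2 scale in siIGF2BP2 and IGF2BP3 by 1.49 in siIGF2BP3 (adjusted p 1.79e-30 and 7.83e-25 in edgeR's quasi-likelihood test). All 10 hepatocyte markers reached 1 CPM, against 1 of 8 markers of blood, endothelial and stromal cells (PECAM1), and the latter summed to 0.597 to 1.5 CPM per library. On the spike-in scale 8 of 8 mRNAs known to be short-lived fell over the siControl time course (median log2 change -4.64). Of 8 known to be long-lived, 0 were called in edgeR and 0 passed an unadjusted p under 0.05, with a median of 0.07. Over the knockdown time courses, 6, 6 and 7 of these 8 were called higher (siIGF2BP1, siIGF2BP2 and siIGF2BP3 in turn, edgeR). Their medians there were 0.23, 0.22 and 0.23, while all 8 short-lived mRNAs fell in each knockdown. Why the long-lived mRNAs rose on this scale was not tested.

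An AU-rich word in the 3′ untranslated region (3′UTR), TATTTAT, is a textbook feature of unstable mRNAs. Sites are shown for 3 subunits because they occur in some steep and some shallow members. MED17 and MED13 were among the steeper mRNAs described below and MED12 among the shallower ones. Each line gives 27 nt of the hg38 transcript strand with the word in capitals and 10 nt on either side.
MED17 chr11:93814322-93814348, plus strand: ttatgccttgTATTTATttacattttc
MED17 chr11:93814705-93814731, plus strand: acaccagctgTATTTATtaggagaaag
MED13 chr17:61946011-61946037, minus strand: tctcttctctTATTTATtgtaagtttt
MED13 chr17:61945104-61945130, minus strand: ttgcctttttTATTTATttaattttct
MED12 chrX:71142385-71142411, plus strand: ttttgtatatTATTTATatagagaccc

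The MED17 sites start at nt 2268 and 2651 of a 3′UTR of 2899 nt, those of MED13 at nt 441 and 1348 of 3863, and that of MED12 at nt 177 of 232. Of the 47 subunits tested, 14 held TATTTAT on the transcript strand of the canonical 3′UTR (29.8%, against 35.2% of 11385 protein-coding genes tested). The shorter core ATTTA, which every TATTTAT contains, was present in 31 (66.0% against 72.6%), TGTANATA, the word of PUF proteins, in 13 (27.7% against 29.8%) and ATTACAA in 8 (17% against 13.4%). INTS5, among the steepest mRNAs, held neither ATTTA nor TATTTAT, and neither did INTS1, INTS11, MED24 and MED25, which were among the shallowest. MED18, MED26, MED9 and MED7, also among the steepest, held ATTTA but not TATTTAT. A match is a description of letters only.

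Before actinomycin D the subunit mRNAs were of middling abundance. In siControl at 0 h their median was 5.42 RPKM (reads scaled by exon length and library size), against 4.61 over all genes tested, with 5.84 for Mediator and 5.42 for Integrator. MED4, a middle module subunit, was highest at 20.6 and 19.8 RPKM in the 2 libraries, followed by the head subunit MED8 at 19.1 and 18.7 and by INTS13 at 17.7 and 18.4. The lowest MED8 library at 18.7 and the highest INTS13 library at 18.4 were neighbours without overlap. The lowest were the head subunit MED17 at 0.227 and 0.247 RPKM, MED12L at 0.332 and 0.310, and MED26 at 0.871 and 0.784. MED17's value rests on 216 and 305 reads and on an exon union of 16610 nt, against 5087 nt for its canonical transcript. A protein-coding annotation on the same strand covers 13.0% of MED17 exons, so its reads may be incompletely assigned. With each gene's longest transcript as the length, the median of the subunits was 8.04 RPKM.

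Decay in siControl cells ran from near-complete loss to no loss within these complexes. The log2 change over 6 h was fitted as a slope on ERCC-scaled reads, and 45 of 47 subunit mRNAs fell, with an adjusted p under 0.05 in edgeR, beside 80.3% of all genes tested (80.6% in either direction). On the scale of the bulk of mRNA (TMM), which sets the typical gene to no change, 26 of the subunits fell and 10 rose. On library size 36 fell and 5 rose. Of the 13136 genes tested, 9858 were called in either direction on TMM and 9632 on library size. The median change of all genes was -0.88 with the spike-in, -0.02 with TMM and -0.34 with library size, so the shallow members are best read relative to that shift. The subunit median was -1.20, with -1.24 for Mediator (31 of 32 fell) and -1.0 for Integrator (14 of 15). The spike-in was added per µg of total RNA, so this scale follows mRNA relative to total RNA. Neither cell number nor RNA per cell was measured.

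**Figure D1:**
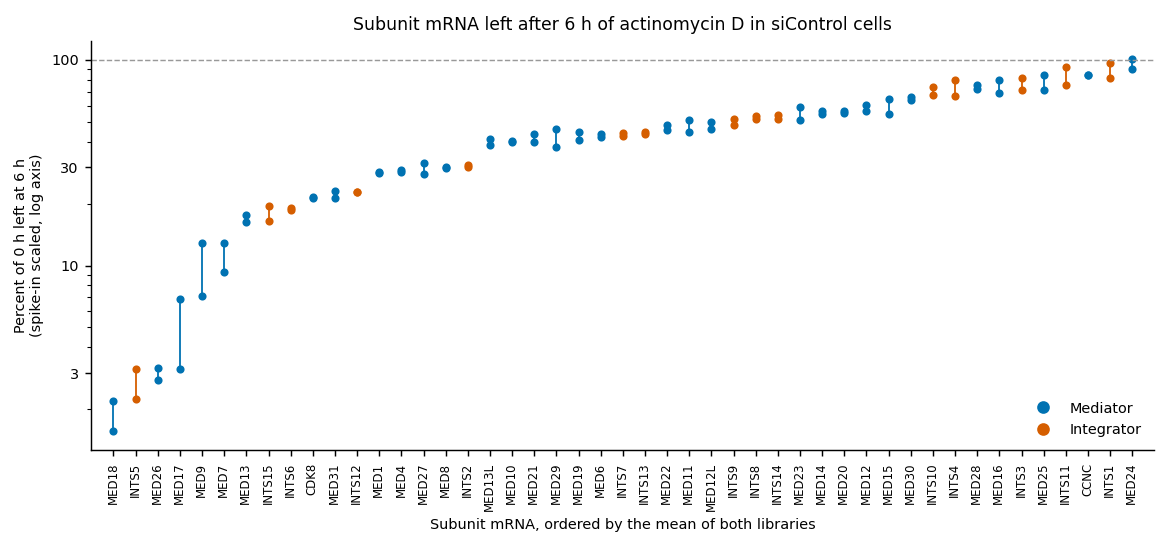
Percent of the siControl 0 h mean left after 6 h of actinomycin D for the 47 subunit mRNAs (y axis, log scale, spike-in scaled; points are the 2 libraries, joined by a line). The percentages run from 1.57 and 2.19 for MED18 to 101 and 90.2 for MED24, and on TMM scaling the shallow members at the right, among them MED24, INTS1, INTS11, CCNC, MED25 and INTS4, turn from a fall to a rise.

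MED18, a head subunit that pairs with MED20 (ENSG00000130772.13, hg38 chromosome 1, 28329002 to 28335965, plus strand), fell most. It held 399 and 486 reads at 0 h, 37 and 47 at 3 h, and 9 and 12 at 6 h. On the spike-in scale 11.3% and 11.5% of the 0 h mean were left at 3 h and 1.57% and 2.19% at 6 h, a log2 change of -5.83 (SE 0.44, adjusted p 6.69e-11, edgeR). The libraries of the 3 time points did not overlap. Its partner MED20 fell by 0.84, with 55.2% and 56.2% left at 6 h.

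MED26, which joins the middle module and recruits elongation factors (ENSG00000105085.10, chromosome 19, 16574907 to 16629062, minus strand), held 266 and 310 reads at 0 h. At 3 h 7 and 14 reads were counted, and at 6 h 12 and 10. These were 3.26% and 5.24% of the 0 h mean at 3 h and 3.19% and 2.79% at 6 h, so nearly all of the loss preceded 3 h. The fitted change of -5.64 has a wide error (SE 0.935, adjusted p 1.01e-05, edgeR), and 3 neighbouring annotations on the same strand cover 27.2%, 13.2% and 3.7% of MED26 exons, so its reads may be incompletely assigned.

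INTS5, of the Integrator backbone and shoulder (ENSG00000185085.2, chromosome 11, 62646848 to 62653302, minus strand), went from 773 and 1122 reads at 0 h to 65 and 77 at 3 h and to 38 and 26 at 6 h. In percent of the 0 h mean, 9.40 and 8.95 were left at 3 h and 3.14 and 2.25 at 6 h. Its change of -5.39 (SE 0.573, adjusted p 1.74e-08, edgeR) was the steepest of Integrator. A protein-coding annotation on the same strand covers 9.3% of INTS5 exons, so its reads may be incompletely assigned. The other backbone and shoulder mRNAs were far shallower: INTS2 fell by 1.71, INTS7 by 1.2, and INTS1, the largest subunit, had a change of -0.17 that was not called (adjusted p 0.0725). INTS1 was called without the second siControl 0 h library (-0.28, adjusted p 6.49e-03), without the first 6 h library (-0.24, adjusted p 0.0382) and with the replicate number as a block (adjusted p 0.0483).

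The head subunit MED17 (ENSG00000042429.11, chromosome 11, 93784227 to 93814963, plus strand) fell by 4.51 (SE 0.484, adjusted p 2.01e-08, edgeR), with 6.89% and 3.14% left at 6 h. Its change carries the same limit of a same-strand annotation, over 13.0% of its exons. The middle subunit MED9 (ENSG00000141026.5, chromosome 17, 17476994 to 17493221, plus strand) fell by 3.40 (SE 0.585), with 12.1% and 10.4% left at 3 h and 12.9% and 7.09% at 6 h. MED7, also of the middle module, fell by 3.23 and had 9.33% and 12.9% left at 6 h. Below these 6 came a gap: the next mRNA, MED13, fell by 2.56.

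By module, all 9 middle subunits fell (median -1.82). The core subunits MED4 and MED31 fell by 1.79 and 2.16, and MED1, the contact for nuclear receptors (ENSG00000125686.11, chromosome 17, 39404285 to 39451272, minus strand), fell by 1.82 (SE 0.115, adjusted p 4.08e-12, edgeR). MED1 had 48.2% and 45.6% left at 3 h and 28.6% and 28.3% at 6 h. All 7 head subunits fell (median -1.22), MED8 among them by 1.73. The 4 subunits between head and tail fell too (median -0.93), as did MED14, the scaffold, by 0.84 (SE 0.0937). On TMM scaling MED14 and MED12 stood at 0.033 and 0.095 in place of a fall.

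Tail subunits had the smallest changes of Mediator, with 4 of 5 called and a median of -0.43. MED24 (ENSG00000008838.19, chromosome 17, 40019097 to 40061215, minus strand) had 110% and 106% left at 3 h and 101% and 90.2% at 6 h, a change of -0.07 that was not called (SE 0.0855, adjusted p 0.478, edgeR). MED25, which binds activation domains, had 84.2% and 71.5% left at 6 h (change -0.36, adjusted p 5.79e-03). Without the second siControl 6 h library the change of MED25 was -0.22 and was not called (adjusted p 0.119). On TMM scaling these changes were 0.80 for MED24 and 0.50 for MED25, both upward.

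Within the kinase module the catalytic subunit and its cyclin stood far apart. CDK8, the kinase (ENSG00000132964.11, chromosome 13, 26254104 to 26420982, plus strand), had 43.1% and 42.1% left at 3 h and 21.5% and 21.2% at 6 h, a change of -2.23 (SE 0.144, adjusted p 5.66e-12, edgeR). CCNC, cyclin C (ENSG00000112237.12, chromosome 6, 99542387 to 99568825, minus strand), had 85.5% and 88.2% left at 3 h and 84.4% and 84.6% at 6 h, a change of -0.24 (SE 0.0958, adjusted p 0.0247). The call for CCNC was lost without the first siControl 0 h library (change -0.12, adjusted p 0.329), and on TMM scaling its change was 0.63. The libraries of CDK8 and CCNC did not overlap at 3 or 6 h. CDK8 has 2 processed pseudogenes, between which and the gene reads could be split.

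Paralogs of the kinase module differed as well. MED13, which links the kinase to the core (ENSG00000108510.9, chromosome 17, 61942605 to 62065278, minus strand), had 16.3% and 17.7% left at 6 h, and MED13L 41.3% and 38.7%, for changes of -2.56 (SE 0.203) and -1.32 (SE 0.131). MED12, which activates CDK8 (ENSG00000184634.15, chromosome X, 71118543 to 71144103, plus strand), had 60.3% and 56.4% left at 6 h, and MED12L 50.0% and 46.0%, for changes of -0.78 (SE 0.114) and -1.06 (SE 0.217). The siControl libraries of MED12L were spread at 3 h, at 44.2% and 65.7%, and its 0 h level was 4.26 and 3.96 CPM. On TMM scaling the change of MED12L was -0.19 and not called (adjusted p 0.386).

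Integrator mRNAs also varied within modules. In the endonuclease all 3 fell, by 1.00 for INTS9 (SE 0.123), by 0.45 for INTS4 (SE 0.102) and by 0.25 for INTS11, the catalytic subunit (SE 0.11, adjusted p 0.0408, edgeR). INTS11 (ENSG00000127054.20, chromosome 1, 1311585 to 1324687, minus strand) had 109% and 106% left at 3 h and 92.7% and 75.3% at 6 h, and without the second siControl 6 h library its change was -0.06 (adjusted p 0.614). In the phosphatase arm INTS6 fell by 2.42 (SE 0.359), with 25.4% and 26.4% left at 3 h and 18.7% and 19.1% at 6 h, while INTS8 fell by 0.92 (SE 0.105). The 6 subunits of the arm and other group all fell (median -1.05), led by INTS15 at -2.48 and INTS12 at -2.14. On TMM scaling INTS11, INTS4 and INTS1 had changes of 0.61, 0.42 and 0.70, and INTS8 and INTS9 were not called.

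**Figure D2:**
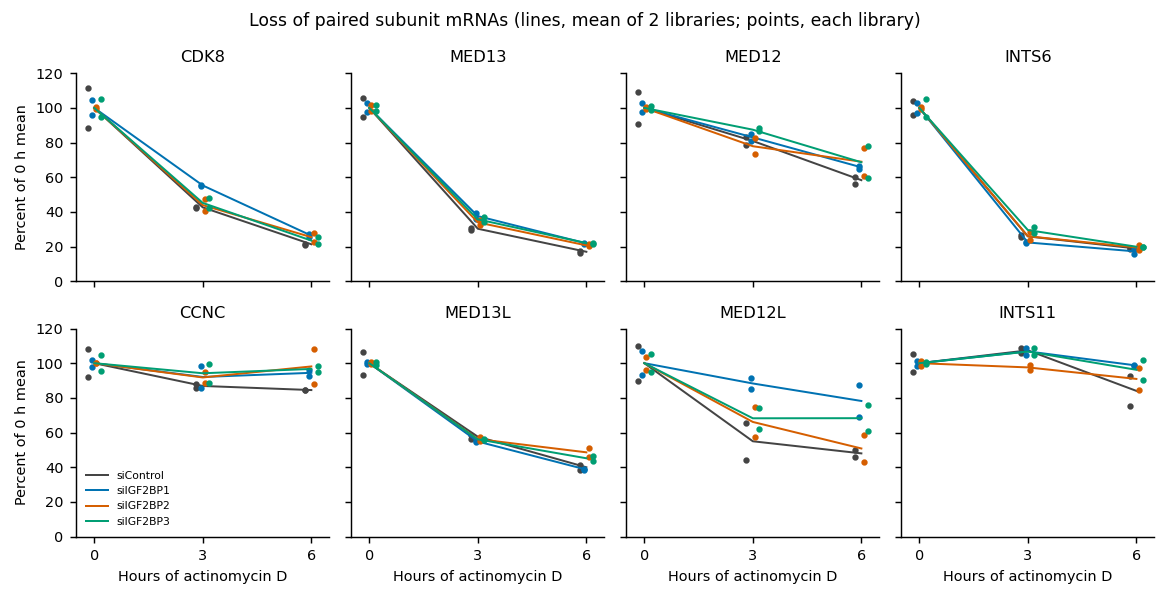
Percent of each condition's own 0 h mean (y axis, spike-in scaled) against hours of actinomycin D for kinase module mRNAs and for INTS6 and INTS11 (points, each library; lines, mean of 2; colours, siRNA). In siControl CDK8 ends at 21.5% and 21.2% and CCNC at 84.4% and 84.6%, and the shallow CCNC and INTS11 turn upward on TMM scaling.

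Splitting the siControl time course showed where the loss fell. From 0 to 3 h, 39 of 47 subunits fell (median -0.65, all genes -0.44, 61.3% of all genes lower and 62.2% called in edgeR), and from 3 to 6 h 41 fell (median -0.48, all genes -0.42, 64.9% lower and 65.0% called). Early loss was by far the larger for MED26 (-4.51 then -0.53, the latter not called), MED9 (-3.16 then -0.16, adjusted p 0.462), INTS6 (-1.95 then -0.46) and INTS5 (-3.45 then -1.76). MED18 kept falling at a similar pace (-3.13 then -2.59), and so did CDK8 (-1.23 then -1.0). MED4 (-0.73 then -1.05) and MED8 (-0.72 then -1.01) lost more in the later interval. The late change of MED17, -1.22, lost its call without the second 3 h library (-0.97) or the second 6 h library (-0.78), and that of MED9 was -0.66 and called without the first 6 h library and 0.20 without the second. The late change of INTS6 was not called on library size (-0.16, adjusted p 0.167) or TMM (-0.042, adjusted p 0.75). The early and late changes were not tested against each other.

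Expressed as half-lifetimes from first-order decay, the siControl values ran from 0.847 h for MED26, 0.991 h for INTS5 and 1.00 h for MED18 to 107 h for INTS1 and 265 h for INTS11. MED24 has none, because its level at 3 h, above that at 0 h, makes the mean rate negative. Long values are ratios of small changes and carry little precision at 6 h of observation. CDK8 was at 2.56 h and CCNC at 18.5 h, MED13 at 2.0 h and MED13L at 4.12 h, MED12 at 8.64 h and MED12L at 4.31 h. The subunit median was 4.76 h (4.33 h for Mediator, 6.12 h for Integrator), against 5.90 h over all genes with a value. In the knockdowns it was 6.03, 5.23 and 5.45 h for siIGF2BP1, siIGF2BP2 and siIGF2BP3, where the all-gene medians were 6.51, 6.21 and 6.61 h. The medians leave out subunits without a value, so they rest on 46 subunits in siControl and 44, 45 and 44 in the knockdowns. INTS1 had no value in any knockdown, and INTS11 none in siIGF2BP1 and siIGF2BP3. On TMM scaling the subunit medians were 8.63 h in siControl and 7.37, 8.93 and 8.58 h in the knockdowns. That puts siControl above siIGF2BP1 and, narrowly, above siIGF2BP3 in place of below them. Of the subunits with a value in siControl, 7 were under 2 h (15.2%, all genes 12.4%) and 10 over 12 h (21.7%, all genes 26.8%).

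The steepest mRNAs came from genes with few exons. Of the 6 subunits with at most 3 exons in the canonical transcript (MED18, MED26, INTS5, MED9, MED7 and MED11), 5 were among the 6 steepest, and their median change of -4.40 compares with -1.93 for the 1286 protein-coding genes tested with that many exons. MED11 was the exception at -1.06. Subunits with 4 to 8 exons had a median of -1.25 (15 subunits, all genes -0.83), those with 9 to 17 exons -0.96 (10, all genes -0.77) and those with 18 or more -0.85 (16, all genes -0.81). MED17 with 12 exons and MED13 with 30 were steep in spite of many exons. Across the 47 subunits Spearman's rho of slope with exon number was 0.468 (0.149 over 11385 genes), with 3′UTR length -0.302 (-0.241) and with ATTTA count -0.26 (-0.238). With TGTANATA count it was -0.152 (-0.244), and with canonical transcript length 0.125, opposite in sign to all genes (-0.279). Pearson's r was 0.409 for exon number (0.17), but -0.007 for 3′UTR length (-0.102) and -0.012 for ATTTA count (-0.097). These are descriptions across genes, which share libraries and are not independent replicates.

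**Figure D3:**
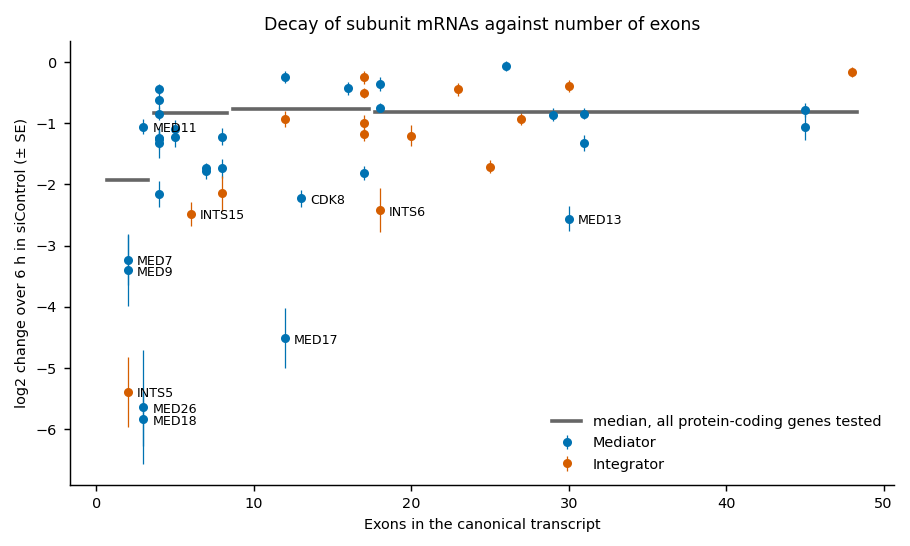
The log2 change over 6 h in siControl (y axis, spike-in scaled, bars are SE) against the number of exons of the canonical transcript for the 47 subunit mRNAs, with grey lines for the median of all protein-coding genes tested in each exon class. MED18, MED26, INTS5, MED9 and MED7 lie below the class median of -1.93, and TMM scaling shifts the all-gene median from -0.88 to -0.02, which turns the shallow members upward.

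Knockdown of an IGF2BP changed few subunit mRNAs at 0 h. In each knockdown 4 of 47 were called in edgeR (adjusted p under 0.05, TMM scaling), beside 15.9% of all genes for siIGF2BP1, 12.1% for siIGF2BP2 and 9.39% for siIGF2BP3, and the called changes were between -0.19 and 0.34 on the log2 scale. At an unadjusted p under 0.05, 8, 12 and 9 of 47 subunits passed, beside 3499, 3032 and 2720 of the 13136 genes tested. The medians were 0.03, 0.04 and 0.05 (all genes 0.01, 0.02 and 0.00). MED1 and CCNC were higher in all 3 comparisons, which share the siControl libraries.

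MED1 stood at 102 and 103 CPM in siControl, at 130 and 131 in siIGF2BP1, at 120 and 120 in siIGF2BP2 and at 119 and 114 in siIGF2BP3. Every knockdown library was above both siControl libraries. The log2 changes were 0.34 (SE 0.0418, adjusted p 6.45e-08), 0.22 (SE 0.0417, adjusted p 1.58e-04) and 0.18 (SE 0.042, adjusted p 2.95e-03, edgeR). In siIGF2BP3 the call was lost without the first siControl library (0.17, adjusted p 0.0506), without the first siIGF2BP3 library (0.15, adjusted p 0.0762) and on spike-in scaling (0.26, adjusted p 0.0574).

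CCNC stood at 79.2 and 76.8 CPM in siControl, at 95.9 and 94.2 in siIGF2BP1, at 89.6 and 88.3 in siIGF2BP2 and at 92.3 and 96.7 in siIGF2BP3. Again no knockdown library overlapped siControl. The changes were 0.29 (SE 0.0499, adjusted p 4.78e-05), 0.19 (SE 0.0498, adjusted p 7.85e-03) and 0.28 (SE 0.0501, adjusted p 1.67e-04, edgeR). For siIGF2BP2 the call was lost without the second siControl or the first siIGF2BP2 library (0.17 and 0.18, adjusted p 0.107 and 0.0862), and for siIGF2BP1 on spike-in scaling (0.25, adjusted p 0.061). CDK8, the kinase that cyclin C activates, was not called in any knockdown and stood at 17.1 and 15.4 CPM in siControl, 15.4 and 14.4 in siIGF2BP1, 13.6 and 13.3 in siIGF2BP2 and 18.1 and 19.2 in siIGF2BP3.

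The remaining calls were small. MED24 was higher in siIGF2BP1 (108 and 112 CPM against 95.4 and 102 in siControl, log2 0.16, SE 0.0414, adjusted p 6.28e-03) and in siIGF2BP3 (109 and 107 CPM, log2 0.13, adjusted p 0.0389, edgeR). MED28, between head and tail, was lower in siIGF2BP1 (56.0 and 56.9 CPM against 61.4 and 62.3, log2 -0.13, adjusted p 0.0438). MED30, of the same region, was higher in siIGF2BP2 (11.4 and 12.1 CPM against 9.43 and 9.37, log2 0.32, adjusted p 0.0327). INTS13 was lower in siIGF2BP2 (41.5 and 44.8 CPM against 48.5 and 50.1, log2 -0.19, adjusted p 0.0221), and its Integrator arm partner INTS14 was higher in siIGF2BP3 (44.4 and 46.4 CPM against 40.3 and 37.6, log2 0.22, adjusted p 0.043).

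Leaving out single libraries showed how narrowly these 5 passed. Of the siIGF2BP1 calls, MED24 and MED28 were lost without the first siControl or the second siIGF2BP1 library, and MED28 also without the second siControl or the first siIGF2BP1 library, leaving 2, 2, 3 and 3 calls. In siIGF2BP2, MED30 was lost without any one of the 4 libraries and INTS13 without 3 of them, leaving 1 call without the second siControl or the first siIGF2BP2 library, 2 without the first siControl library and 3 without the second siIGF2BP2 library. In siIGF2BP3, INTS14 was lost each time and MED24 in 3 of 4, leaving 1 call without the first siControl or the first siIGF2BP3 library, 2 without the second siIGF2BP3 library and 3 without the second siControl library. Libraries that did not overlap siControl and lay above it were found for 19, 21 and 24 of 47 subunits (40.4%, 44.7% and 51.1%), against 31.2%, 32.4% and 27.4% of all genes. Libraries that lay below it were found for 12, 13 and 7 (25.5%, 27.7% and 14.9%), against 26.0%, 24.2% and 25.5% of all genes. On spike-in scaling MED24 in siIGF2BP1 and siIGF2BP3, MED28 in siIGF2BP1 and INTS13 in siIGF2BP2 were not called (adjusted p 0.547, 0.159, 0.411 and 0.537).

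**Figure D4:**
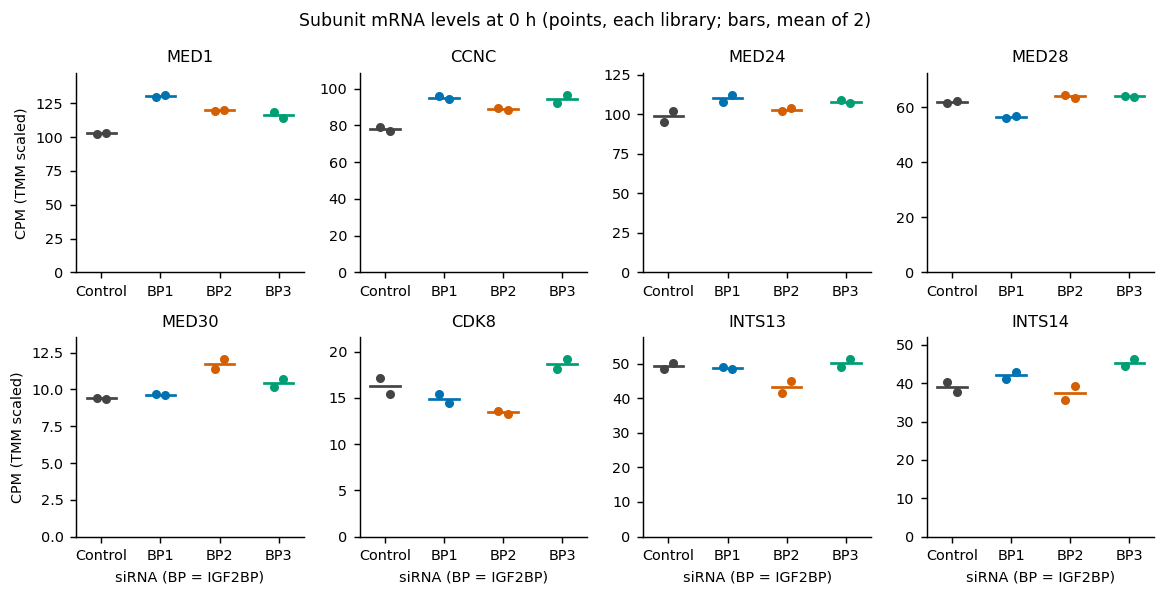
TMM-scaled CPM at 0 h (y axis from 0) of 8 subunit mRNAs in siControl and after siRNA against IGF2BP1, IGF2BP2 or IGF2BP3 (BP1 to BP3, points are libraries, bars the mean of 2). MED1 rises from 102 and 103 CPM to between 114 and 131, and CCNC from 79.2 and 76.8 to between 88.3 and 96.7, with no overlap with siControl and the same direction on spike-in scaling.

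The knockdowns were also compared with each other. Between siIGF2BP1 and siIGF2BP2, 6 of 47 subunits differed (18.7% of all genes), between siIGF2BP1 and siIGF2BP3 4 (14.3%), and between siIGF2BP2 and siIGF2BP3 3 (9.19%, edgeR). MED1 was higher in siIGF2BP1 than in either of the others, by 0.12 and 0.16, but on spike-in scaling these differences were 0.0084 and 0.05 and were not called (adjusted p 0.966 and 0.79). MED28 was lower in siIGF2BP1, at -0.18 in both comparisons. CDK8 was lower in siIGF2BP2 than in siIGF2BP3 (log2 -0.47, adjusted p 6.58e-04) and remained called without any one of those 4 libraries and on spike-in scaling. The siIGF2BP2 and siIGF2BP3 libraries of CDK8 did not overlap and lay on either side of the siControl libraries.

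The time course asks whether an IGF2BP knockdown alters decay, and for the subunits no difference in slope was called. In edgeR 0 of 47 passed in each knockdown (all genes 0.0152%, 0.0% and 0.0228%), and DESeq2 called 0 in each. At an unadjusted p under 0.05 in edgeR, 8, 6 and 9 of 47 passed, beside 1436, 896 and 2113 of the 13136 genes tested. The median difference of the subunits was 0.20, 0.22 and 0.25 on the log2 scale over 6 h, beside 0.19, 0.17 and 0.22 for all genes. The 8 long-lived mRNAs of the drug check had median differences of 0.16, 0.16 and 0.18, with 0 called. Within the knockdowns 40, 41 and 41 of 47 subunits fell on the spike-in scale (69.1%, 71.3% and 67.2% of all genes lower), with medians of -0.94, -0.98 and -0.97.

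The smallest p-values belonged to MED8 in siIGF2BP1 (difference 0.51, 95% CI 0.25 to 0.77, adjusted p 0.355, edgeR), MED15 in siIGF2BP2 (0.29, adjusted p 0.643) and MED4 in siIGF2BP3 (0.60, CI 0.22 to 0.97, adjusted p 0.277). Next came MED14 (0.46) and INTS13 (0.48) in siIGF2BP1, INTS13 (0.39) and MED1 (0.37) in siIGF2BP2, and INTS10 (0.36) and MED8 (0.39) in siIGF2BP3. For MED1, the mRNA that was higher at 0 h, the difference was 0.48, 0.37 and 0.45 (adjusted p 0.423, 0.643 and 0.277). For CDK8 it was 0.31, 0.25 and 0.13, and for CCNC 0.16, 0.22 and 0.19, with no call.

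Precision was poorest for the mRNAs that were nearly gone. MED26 had the lowest difference in every knockdown (-0.43, -1.71 and -1.09), with SE of 1.62 to 1.72 and with 0 reads in the first siIGF2BP2 library at 6 h. INTS5 had the highest in siIGF2BP1 (1.26, CI -0.44 to 2.95) and MED17 in siIGF2BP3 (1.17, CI -0.33 to 2.67). These intervals allow changes in either direction.

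The count of 0 depended on 1 library and on the form of the test. Without the second siControl 0 h library, the difference in siIGF2BP1 was 0.65 for MED8 and 0.61 for MED14. In siIGF2BP3 it was 0.75 for MED4, 0.52 for MED8 and 0.45 for INTS10, again with slower loss. Without that library the median difference of all genes moved as well, to 0.27, 0.25 and 0.30 in siIGF2BP1, siIGF2BP2 and siIGF2BP3. With the change from 0 h to 6 h in place of the slope, INTS5, MED1 and MED8 were called in siIGF2BP1, none in siIGF2BP2, and MED1 and MED4 in siIGF2BP3. That form called 86, 72 and 195 of the 13136 genes tested, with all-gene medians of 0.19, 0.17 and 0.22.

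**Figure D5:**
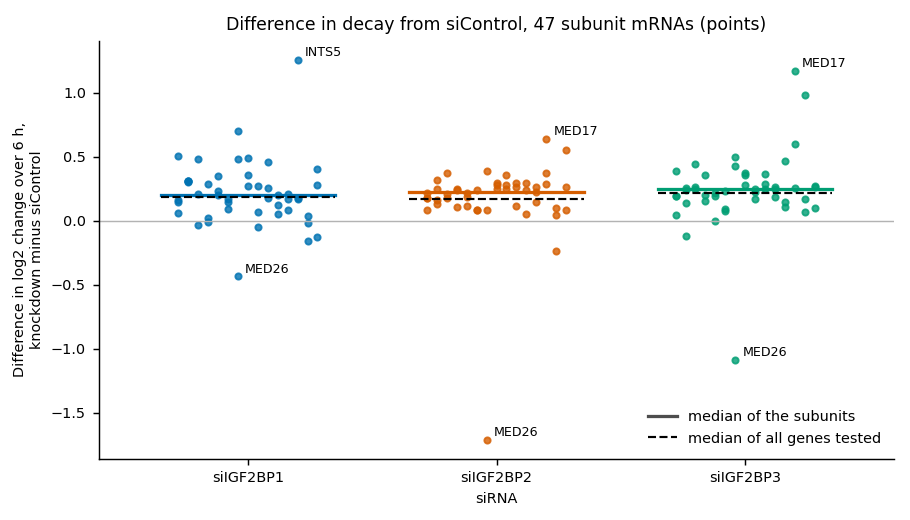
Difference in the log2 change over 6 h between each knockdown and siControl (y axis, spike-in scaled) for the 47 subunit mRNAs (points), with solid bars for their median and dashed bars for the median of all genes tested. The subunit medians of 0.20, 0.22 and 0.25 lie near those of all genes at 0.19, 0.17 and 0.22, and on TMM scaling the all-gene medians are -0.01, -0.02 and -0.01.

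As a share of gene reads, the subunits together took 0.194% and 0.196% of siControl libraries at 0 h, 0.166% and 0.165% at 3 h and 0.154% and 0.152% at 6 h. The share fell in every condition over time. In siIGF2BP1 it was 0.200% at 0 h and 0.161% at 6 h, in siIGF2BP2 0.199% and 0.165%, and in siIGF2BP3 0.203% and 0.166% (means of 2 libraries). At each time both libraries of each knockdown were above both siControl libraries.

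Partners of the complexes, 28 genes all of which were tested, were followed for comparison. On the spike-in scale, the only one on which they were fitted, 19 of 28 fell in siControl (67.9%, median -0.45). Of all genes tested 80.3% fell, and the all-gene median was -0.88. RNA polymerase II subunits were mostly shallow, with 6 of 12 called lower and a median of -0.22. Pausing and elongation factors were steeper, with 9 of 10 called lower (median -1.08), among them the cyclins CCNT1 (-2.69) and CCNT2 (-2.19) of the elongation kinase, the kinase CDK9 (-1.68), its inhibitor HEXIM1 (-2.01) and NELFA (-2.11) of the pausing complex. For phosphatase 2A, which Integrator carries, the catalytic PPP2CA fell by 1.75 and the scaffold PPP2R1A had -0.17, not called. In the SOSS complex, which contains INTS3, INIP (-1.41) and NABP1 (-1.29) fell and NABP2 (-0.03) was not called. CDK19, the paralog of CDK8, fell by 0.94.

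At 0 h, 6 of 28 partners were called in siIGF2BP1 (1 higher), 3 in siIGF2BP2 (1 higher) and 5 in siIGF2BP3 (4 higher, edgeR). These were 21.4%, 10.7% and 17.9%, against 15.9%, 12.1% and 9.39% of all genes. For a difference in decay, 0 of 28 were called in any knockdown (edgeR). At an unadjusted p under 0.05, 4, 1 and 7 of 28 passed, beside 1436, 896 and 2113 of the 13136 genes tested. NELFCD was higher at 0 h in all 3 knockdowns (0.25, 0.15 and 0.12). CDK19 was lower in siIGF2BP1 (-0.29, adjusted p 0.044) and stood at 0.20 and 0.04 in the others, without a call. POLR2A, the largest polymerase subunit, was lower in siIGF2BP1 and siIGF2BP2 (-0.11 and -0.16) and higher in siIGF2BP3 (0.12, adjusted p 0.0422). NABP1 was lower in siIGF2BP3 (-0.49, adjusted p 2.33e-04).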

How the data were processed

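RNA abundance was measured in 24 HepG2 libraries (4 siRNA conditions, 3 times of actinomycin D, 2 libraries each), grouped by the sample titles. The authors, per the labels and their methods, added 0.02 µl of ERCC RNA per µg of total RNA, selected polyadenylated RNA, made stranded libraries, sequenced 100 bp single-end reads on a NovaSeq, and used Trimmomatic 0.39, HISAT2 2.1.0, hg38, GENCODE 29 and HTSeq. The deposited values are raw read counts per gene. The overlap mode of the counting is not given in the sources used here, so genes that overlap on 1 strand or have pseudogene copies are uncertain. Rows that name no gene held 13.551% to 17.064% of each library and were left out with 45 duplicate pseudoautosomal rows.

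The 13136 genes that reached 1 CPM in 2 or more libraries were tested in edgeR 4.0.16 (R 4.3.3), two-sided, with Benjamini-Hochberg adjustment over all of them and a threshold of 0.05. Abundance at 0 h used 12 group means and TMM scaling. Decay used an intercept and a slope for each condition (16 residual degrees of freedom) and ERCC totals, in place of the conversion to attomoles that the authors made. Because the spike-in was added per mass of total RNA, it does not correct for cell number or RNA yield. Slopes are given per 6 h on the log2 scale, with differences above 0 where the knockdown lost mRNA more slowly. SE were derived from the F statistic. Half-lifetime is ln2 divided by the mean decay rate to 3 and 6 h. Symbols were matched for 58207 rows (469 had none). Positions, exons and 3′UTRs are from GENCODE 44 on hg38, where the authors counted on release 29.

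Libraries of a group varied beyond sampling noise, with chi-square over degrees of freedom of 3.24 to 8.51, and none was treated as a duplicate deposit. Depth limits mRNAs with few reads, above all MED26 at 6 h. Counting errors cover counting only, since PCR duplicates cannot be removed. On simulated data, 68% of 200 genes changed by 1 log2 unit were recovered at 0 h and 58% in slope (siIGF2BP1 comparisons, 13136 genes). The simulated counts took their means and gene-wise spread from the spike-in scaled slope model, while 0 h was tested on TMM group means. The 68% therefore need not describe the 0 h test on the real libraries, which called smaller changes.

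The subunits, the modules, the partner, marker and drug-check lists and the tests were chosen with earlier results of these data known. Genes described with values are the 5 steepest and 5 shallowest in siControl, those called at 0 h, the 3 with the smallest p for each decay difference, and subunits of the kinase, endonuclease and scaffold. Others, such as MED7 and INTS15, were named after their values were seen. Alternatives were DESeq2 1.42.0, other scalings and filters, fits restricted to the libraries of a comparison, 0 h against 6 h alone, a replicate block, and fits without each library. Protein sequences were not used here. Sites in other subunits are not reported here.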

Additional observations from a re-analysis of the deposited data

Results flagged for a closer look

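The level of 8 subunit mRNAs at 0 h differed between knockdowns in a direct test of the difference (edgeR, adjusted p under 0.05, TMM scaling), and each value is a log2 difference with 2 libraries a side. Between siIGF2BP1 and siIGF2BP2 these were MED12L (-0.52, adjusted p 0.0473), INTS3 (0.26, adjusted p 4.76e-03), MED28 (-0.18, adjusted p 4.22e-03), INTS13 (0.18, adjusted p 0.032), INTS11 (-0.14, adjusted p 0.0492) and MED1 (0.12, adjusted p 0.0392). Between siIGF2BP1 and siIGF2BP3 they were CDK8 (-0.32, adjusted p 0.0192), MED28 (-0.18, adjusted p 5.99e-03), MED1 (0.16, adjusted p 6.12e-03) and INTS11 (-0.15, adjusted p 0.0418). Between siIGF2BP2 and siIGF2BP3 they were CDK8 (-0.47, adjusted p 6.58e-04), INTS14 (-0.28, adjusted p 8.79e-03) and INTS13 (-0.22, adjusted p 0.013).

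On spike-in scaling the higher values in siIGF2BP1 than in siIGF2BP2 were no longer called: INTS3 was at 0.15 (adjusted p 0.333), INTS13 at 0.063 (adjusted p 0.713) and MED1 at 0.0084 (adjusted p 0.966). MED1 and INTS11 between siIGF2BP1 and siIGF2BP3, and INTS13 and INTS14 between siIGF2BP2 and siIGF2BP3, lost their call on that scale as well.

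INTS13 and INTS14, which bind each other in the Integrator arm, were both lower in siIGF2BP2 than in siIGF2BP3. INTS13 stood at 41.5 and 44.8 CPM in siIGF2BP2 and at 48.9 and 51.4 in siIGF2BP3, INTS14 at 35.6 and 39.4 and at 44.4 and 46.4. Both calls were lost without the first siIGF2BP2 or the second siIGF2BP3 library, leaving CDK8 alone. MED12L stood at 3.38 and 3.01 CPM in siIGF2BP1 and at 4.79 and 4.39 in siIGF2BP2. Without either library of siIGF2BP1 or the first of siIGF2BP2, 1 of the 6 calls between those knockdowns was left (INTS3, MED28 and INTS3 in turn), and without the second siIGF2BP2 library 2 (INTS13 and MED28). Between siIGF2BP1 and siIGF2BP3, MED1 alone was left without the first siIGF2BP1 library, MED28 alone without the second, CDK8 and MED1 without the first siIGF2BP3 library, and MED28, with MED16 gained, without the second.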

How the results depend on the processing

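Scaling was the choice that mattered most for decay in siControl. On TMM scaling the changes became 0.63 for CCNC, 0.70 for INTS1, 0.61 for INTS11, 0.42 for INTS4, 0.095 for MED12, 0.033 for MED14, 0.80 for MED24 and 0.50 for MED25. On library size they became 0.31 for CCNC, 0.38 for INTS1, 0.29 for INTS11, 0.10 for INTS4, 0.48 for MED24 and 0.18 for MED25. Without single libraries the change of MED24 ran from -0.15 to 0.04 (without the second siControl 6 h library). The change of MED9 from 3 to 6 h became 0.13 on library size, 0.25 on TMM, and -0.66 to 0.20 without single libraries. From 3 to 6 h, 24 subunits were called on library size (22 lower) and 21 on TMM (14 lower). Of the 13136 genes tested, 5940 and 6184 were called in these fits, beside 8542 on the spike-in scale.

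At 0 h, spike-in scaling left 1 call in siIGF2BP1 and 2 in siIGF2BP3, with 649 and 471 of the 13136 genes tested called. A fit to the 4 libraries compared gave 11 in siIGF2BP2 in place of 4, and 2383 of all genes in place of 1593. Between siIGF2BP1 and siIGF2BP2 no filter gave 3, with 2125 genes called in all. Spike-in scaling there moved the median of all genes to -0.12 and called 1585 genes in all. It turned 3 higher and 3 lower subunit calls into 0 higher and 4 lower (INTS3, INTS13 and MED1 lost, MED30 gained). Between siIGF2BP1 and siIGF2BP3 spike-in scaling and no filter gave 2 each (875 and 1572 genes in all). Between siIGF2BP2 and siIGF2BP3 spike-in scaling gave 1 (382 genes in all). The change from 0 h to 6 h gave 3 decay differences in siIGF2BP1 and 2 in siIGF2BP3 (86 and 195 of all genes tested). With TMM scaling, an alternative chosen after seeing the data, it gave 1 in siIGF2BP1 (66 of all genes tested). Fits without 1 library gave 2 to 3, 1 to 3 and 1 to 3 calls at 0 h, 1 to 2, 1 to 2 and 1 to 3 between knockdowns, 34 to 39 from 0 to 3 h, 32 to 42 from 3 to 6 h, 43 to 46 for decay, and 0 to 2, 0 to 0 and 0 to 4 for decay differences. The cause of these moves was not tested.

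Same-numbered libraries did not deviate together (correlations -0.022 to 0.09, none over 0.1), and nothing in the labels ties a number to a shared culture, so the numbers were not used as pairs. Whether they share a plate was not tested. With the replicate number as a block the calls at 0 h were 4, 6 and 4 (2181, 1683 and 1316 of all genes). Between knockdowns they were 6, 4 and 3 (2554, 1977 and 1290 of all genes). For decay 46 were called (10604 of all genes) and for decay differences 0, 0 and 0 (1, 2 and 3 of all genes).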
